A study of Mus musculus with 4 samples.

Results

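The genes described here are 10 rows of the 31053 genes of a single-cell count matrix, chosen by name as the non-collagen matrix genes of cartilage: Acan, Hapln1, Comp, Matn1, Matn3, Matn4, Cnmd, Ucma, Mia and 3110079O15Rik, which the GENCODE M21 annotation names Snorc. All 10 were found and detected. The cells came from 2 tibiae of 1 male mouse at postnatal day 6, from which the secondary ossification centre had been left out at either end. The mouse was Col10a1Cre;Rosa26-Tdtomato;Irx3 +/Δ;Irx5 +/-, and no cells of another genotype were analysed here. Cre was driven by Col10a1, a collagen gene of hypertrophic chondrocytes (HCs), so the tdTomato reporter and the WPRE sequence on the same transcript mark HCs and their descendants. All cells lacked an Irx5 allele, whereas by the study's methods an Irx3 allele was deleted by this Cre, in HCs and their descendants. HC-like and earlier chondrocytes thus differed in their Irx3 alleles by design, and stage and allele cannot be told apart between them. The same holds for HC-derived and other osteogenic cells, between which origin and allele cannot be told apart. The 4 sequencing entries of the mouse hold 1 library, counted together by the authors, so no value below has a replicate, a test or a p-value.

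Cartilage matrix is built on aggrecan, the Acan product, whose many chondroitin sulphate chains draw water into the tissue. Aggrecan binds hyaluronan, and link protein, the Hapln1 product, stabilises that bond. COMP and the matrilins are adaptors between collagen fibrils and the proteoglycans, and chondrocytes of the growth plate make all of these while they pass from resting and columnar cells through prehypertrophic cells (pre-HCs) to HCs, some of which go on to become osteoblasts.

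The matrix holds 14181 barcodes with a median of 8235 UMIs, or unique molecular identifiers, each of which counts 1 transcript molecule. Cells with at least 1600 genes and at most 10% mitochondrial UMIs numbered 8255 and formed 29 clusters. The members took no part in the clustering, since they were kept out of the variable genes, and none of them is in a marker list. Of these clusters, 9 had at least 5000 CPM (counts per 1000000 UMIs) of Col2a1, the main cartilage collagen gene. The cluster led by Retnlg (117 cells, 89 of them marked as doublets by the caller Scrublet) was given no name because of its level of Ptprc, a leukocyte gene, and the cluster led by Hba-a2 (82 cells, 41 marked) because 5 of its top 10 genes are red blood cell markers. The other 7, with 1951 cells, were taken as chondrocytes. They comprised 1238 maturing chondrocyte-like cells in 3 clusters, 161 proliferating cells, 354 pre-HC-like cells and 116 HC-like cells. A further 82 cells, led by Tnni2, Efemp1 and Sfrp5, had markers of both resting and articular chondrocytes and were given no stage name. The osteogenic classes held 739 immature and 438 mature osteoblast-like cells. The study's cutoff for cells of HC origin is more than 14 UMIs of WPRE, which 92 of the 116 HC-like cells (79.3%) passed, against 12 of the pre-HC-like and 6 of the maturing cells. The names were rebuilt here by limits set after the clusters had been seen, and they may differ from those of the study.

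The level of a gene in a class is its summed count divided by all UMIs of the class and given per 1000000 (CPM). Brackets hold the exact Poisson 95% interval. All intervals cover counting error only, not the spread between mice. The classes were made from the same cells, so that differences between them are descriptions. Fold changes are log2 ratios with 1 CPM added, and a gene counts as higher or lower when it was past 2-fold with at least 10 CPM in either class.

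Each of the 10 members was at its highest in a chondrocyte class, but not in the same one. The cells without a stage name had the highest levels of Matn4, Cnmd, Ucma and Mia. Maturing chondrocyte-like cells were highest in Acan and Matn1, proliferating cells in Matn3, and pre-HC-like cells in Hapln1, Comp and 3110079O15Rik. HC-like cells were the lowest of the 5 chondrocyte classes in 9 members, the exception being Hapln1, which was lowest in the cells without a stage name. The name of the class with the highest level depended on the clustering, and with another random seed it was the same for 4 of the 10 members. Matn1, Matn4, Cnmd, Ucma and Mia were then highest in a class named resting chondrocyte-like, and the cells without a stage name also had markers of resting chondrocytes. How many cells these classes share was not counted.

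**Figure D1:**
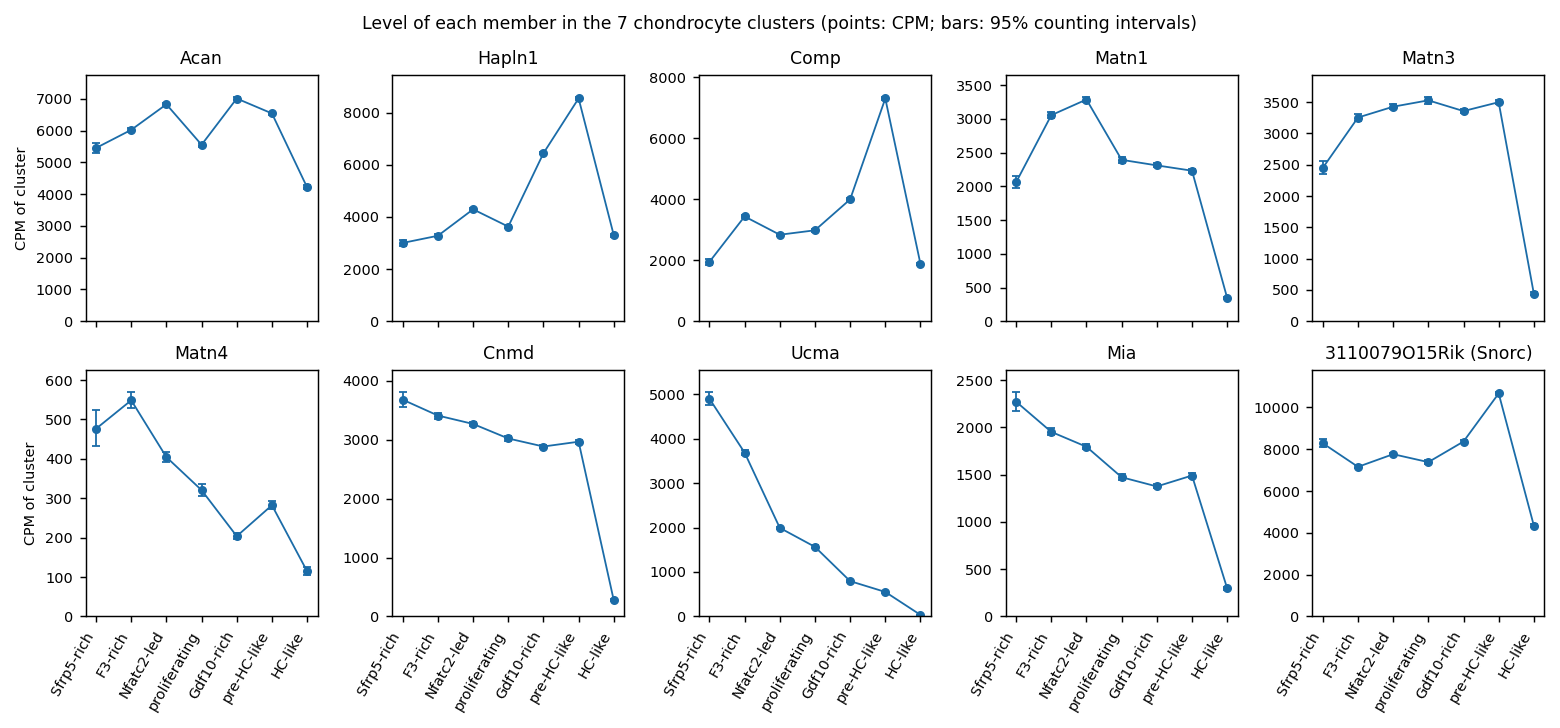
Level of each member (CPM, linear axis from 0) in the 7 chondrocyte clusters, with points for the summed level and bars for 95% counting intervals. The lines join clusters only to guide the eye, and the Gdf10-rich cluster is the one led by 2610528A11Rik. Ucma runs from 4898 CPM in the Sfrp5-rich cluster to 34.4 CPM in HC-like cells, while Hapln1 peaks at 8550 CPM in pre-HC-like cells.

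Acan (ENSMUSG00000030607; GRCm38 chromosome 7, 79053483 to 79115099, plus strand) varied least. Its level was 6745 CPM [6713, 6777] in maturing chondrocyte-like cells and 6539 CPM [6492, 6587] in pre-HC-like cells, a ratio of -0.04 on the log2 scale. Proliferating cells had 5553 CPM [5486, 5620] and the cells without a stage name 5452 CPM [5300, 5607], whose intervals overlap. HC-like cells kept 4214 CPM [4149, 4279]. The whole range over the 7 clusters was 1.66-fold, from HC-like cells to the cluster led by 2610528A11Rik, Il17b and Cox4i2, which had 7008 CPM.

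Hapln1 (ENSMUSG00000021613; chromosome 13, 89539796 to 89611652, plus strand) differed more between the same clusters. It stood at 3003 CPM [2891, 3119] in the cells without a stage name, and among the maturing clusters at 3279 CPM in the one led by F3 and Il11, 4293 CPM in the one led by Nfatc2 and 6445 CPM in the one led by 2610528A11Rik. Pre-HC-like cells reached 8550 CPM [8496, 8604], against 5049 CPM [5021, 5077] in all maturing cells together, a log2 ratio of 0.76 [0.75, 0.77]. HC-like cells had 3298 CPM [3240, 3355.5], and no neighbours among the 5 classes had overlapping intervals, although those of the F3-led cluster and the HC-like cells overlapped.

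Comp (ENSMUSG00000031849; chromosome 8, 70373558 to 70382066, plus strand), which encodes a thrombospondin-family glycoprotein, had the clearest peak in pre-HC-like cells. Its level there was 7306 CPM [7256, 7357], compared with 3476 CPM [3453, 3499] in maturing and 2983 CPM [2934, 3032] in proliferating cells. The cells without a stage name (1946 CPM [1856, 2040]) and the HC-like cells (1876 CPM [1833, 1920]) had overlapping intervals at the lower end. Within the maturing cells Comp did not follow Hapln1, since the Nfatc2-led cluster was lowest with 2837 CPM and the F3-led cluster had 3436 CPM.

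The matrilins are extracellular adaptors with von Willebrand factor A domains. Matn1 (ENSMUSG00000040533; chromosome 4, 130944385 to 130955475, plus strand) was at 2805 CPM [2784, 2826] in maturing, 2394 CPM [2350, 2438] in proliferating, 2232 CPM [2205, 2260] in pre-HC-like and 346 CPM [328, 365] in HC-like cells. Matn3 (ENSMUSG00000020583; chromosome 12, 8947929 to 8972028, plus strand) was nearly level, with 3360 CPM [3338, 3383], 3528 CPM [3475, 3582] and 3498 CPM [3464, 3533] in the same first 3 classes, and then 439 CPM [418, 460] in HC-like cells. The largest step of both thus lay between the pre-HC-like and the HC-like cells. Matn4 (ENSMUSG00000016995; chromosome 2, 164389393 to 164405160, minus strand) took another course, with 477 CPM [432, 524] in the cells without a stage name, 549 CPM [529, 569] in the F3-led cluster, 404 CPM in the Nfatc2-led and 204 CPM in the 2610528A11Rik-led cluster. Pre-HC-like cells had 282 CPM [273, 292] of Matn4 and HC-like cells 115 CPM [104, 126]. Matn4 overlaps Rbpjl on the other strand, and the sources used here do not say whether the counting used strand.

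Ucma (ENSMUSG00000026668; chromosome 2, 4976122 to 4985748, plus strand) encodes a secreted Gla-rich protein of cartilage. It had the widest range of the 10, and was lower in each cluster than in the one before it in the order of the plot by cluster. The cells without a stage name held 4898 CPM [4754, 5046], the F3-led cluster 3685 CPM [3633, 3738], the Nfatc2-led cluster 1992 CPM [1963, 2022] and the 2610528A11Rik-led cluster 794 CPM [778, 811]. Proliferating cells lay between these with 1565 CPM [1530, 1601]. Pre-HC-like cells had 551 CPM [537, 565] and HC-like cells 34.4 CPM [28.7, 40.7]. The range over the 7 clusters was 143-fold, compared with 13.5-fold for Cnmd and 9.51-fold for Matn1.

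Cnmd (ENSMUSG00000022025; chromosome 14, 79637690 to 79662170, minus strand) encodes chondromodulin, a membrane glycoprotein whose released part inhibits vessel growth. Its level stayed between 2884 and 3679 CPM in the 6 clusters before the HC-like cells, and was 273 CPM [256, 290] in the latter. Mia (ENSMUSG00000089661; chromosome 7, 27179742 to 27181157, minus strand), a small secreted protein of cartilage, went from 2272 CPM [2174, 2373] in the cells without a stage name to 1640 CPM [1624, 1655] in maturing, 1491 CPM [1468, 1514] in pre-HC-like and 297 CPM [280, 315] in HC-like cells. Mia overlaps Gm21983 on the same strand, and its counts are uncertain to that extent. 3110079O15Rik (ENSMUSG00000026258; chromosome 1, 87470271 to 87475482, plus strand) encodes a transmembrane chondroitin sulphate proteoglycan of cartilage. It was at 8287 CPM [8099, 8478] in the cells without a stage name, 7912 CPM [7877, 7946] in maturing, 10671 CPM [10610, 10732] in pre-HC-like and 4345 CPM [4280, 4412] in HC-like cells. Proliferating and pre-HC-like cells had overlapping intervals for Cnmd, Mia and Matn3, and maturing and proliferating cells for Matn4.

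The DNA before the start sites of the members is shown as a description. RefSeq's promoter table (GRCm38.p6) has an entry for 8 of the 10 members, and none for Comp and 3110079O15Rik. The 250 bases upstream are printed for the 5 members whose window overlaps no annotated exon, 5′ to 3′ on the gene's strand. Start sites are those of RefSeq, and the windows of Acan and Cnmd do not adjoin the GENCODE gene coordinates given above. Capitals mark any of 5 words found on either strand. These are ACAAAG, which SOX proteins can bind, a variant of this SOX word whose letters are ACAATG, the TATA box word TATAAA, the CCAAT box word as its name spells it, and the GC box word, which reads GGGCGG. Words that overlapped each other were all counted. The windows are chr7:79052976-79053225 on the plus strand for Acan, chr4:130944135-130944384 on the plus strand for Matn1, chr12:8947679-8947928 on the plus strand for Matn3, chr14:79662184-79662433 on the minus strand for Cnmd and chr2:4975872-4976121 on the plus strand for Ucma.
Acan: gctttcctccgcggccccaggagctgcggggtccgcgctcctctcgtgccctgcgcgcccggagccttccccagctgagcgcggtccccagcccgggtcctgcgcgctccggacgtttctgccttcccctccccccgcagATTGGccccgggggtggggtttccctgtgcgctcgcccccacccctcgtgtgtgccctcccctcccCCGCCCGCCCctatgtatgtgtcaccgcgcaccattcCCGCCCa
Matn1: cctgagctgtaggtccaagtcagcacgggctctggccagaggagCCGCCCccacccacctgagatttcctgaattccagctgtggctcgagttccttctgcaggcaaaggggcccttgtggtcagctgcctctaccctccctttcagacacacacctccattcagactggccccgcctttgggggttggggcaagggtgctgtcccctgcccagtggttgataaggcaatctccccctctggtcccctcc
Matn3: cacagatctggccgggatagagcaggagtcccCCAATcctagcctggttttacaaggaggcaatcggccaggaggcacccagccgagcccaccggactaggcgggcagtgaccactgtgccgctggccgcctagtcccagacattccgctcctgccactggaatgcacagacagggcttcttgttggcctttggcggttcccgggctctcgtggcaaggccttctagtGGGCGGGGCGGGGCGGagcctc
Cnmd: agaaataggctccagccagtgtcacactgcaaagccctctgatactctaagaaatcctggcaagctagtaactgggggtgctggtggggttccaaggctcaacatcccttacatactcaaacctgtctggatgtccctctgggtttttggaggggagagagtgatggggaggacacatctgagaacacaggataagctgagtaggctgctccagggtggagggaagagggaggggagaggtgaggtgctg
Ucma: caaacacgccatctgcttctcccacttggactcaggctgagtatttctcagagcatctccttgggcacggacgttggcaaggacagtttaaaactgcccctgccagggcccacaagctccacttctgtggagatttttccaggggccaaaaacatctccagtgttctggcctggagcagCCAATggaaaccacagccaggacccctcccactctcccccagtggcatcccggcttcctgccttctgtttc

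Of the 8 windows counted, those of Hapln1 and Matn4 lay in annotated exons over all 250 bases, and that of Mia over 8 bases. Neither SOX word and no TATA box word lay in the 8 windows. Of the 32851 windows of the same length in the table, 25.2% held a SOX word and 12.4% the TATA box word. Counts in 8 windows are too few to set the members apart from all windows. The CCAAT box word was found in 4 of the 8 members (33.8% of all windows), among them Matn4 with its exon window, and the GC box word in 3 (32.7% of all windows). Matn4 has another entry, not counted here, which also held the GC box word. The Acan window was the richest in G and C with 74.4%, and the lowest share was 50.4% in Mia. Among the windows printed, Acan and Matn3 each held 1 CCAAT box word and 3 GC box words, and Acan was 1.55-fold and Matn3 7.96-fold lower in HC-like than in pre-HC-like cells. Cnmd held none of the 5 words. A match is a description of letters and not a binding site, and a link between the words and the levels was not tested.

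Between maturing and pre-HC-like cells, 2 of the 10 members passed 2-fold. Comp was higher in pre-HC-like cells, with a log2 ratio of 1.07 [1.06, 1.09], and Ucma was lower, with -1.71 [-1.75, -1.67]. Of the 6997 genes with at least 10 CPM in either class, 2.93% were higher and 3.49% lower. The other 8 members ranged from -0.33 for Matn1 to 0.76 for Hapln1, and the median of the 10 was -0.06 against -0.01 over all genes tested. The call of Comp rested on how the stages were divided. It was lost in 6 of 15 alternatives, among them clustering at resolution 0.6, where the ratio was 0.46. When the members were allowed among the variable genes, Ucma had a ratio of 0.30 in the opposite direction, with 537 pre-HC-like and 461 maturing cells.

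Between pre-HC-like and HC-like cells, 9 of the 10 members were lower past 2-fold, where 5.46% of the 7970 genes tested were lower and 22.0% higher. The ratio was -3.96 [-4.21, -3.72] for Ucma, -3.44 [-3.53, -3.35] for Cnmd, -2.99 [-3.06, -2.92] for Matn3 and -2.69 [-2.77, -2.61] for Matn1. Mia followed with -2.32, Comp with -1.96, Hapln1 with -1.37, 3110079O15Rik with -1.30 and Matn4 with -1.29. Acan was the exception with -0.63 [-0.66, -0.61]. The median of the 10 was -2.14, whereas the median over all genes tested was 0.45, so the ratios were also taken relative to the latter. Relative to that median, an alternative added after the data had been seen, Acan stood at -1.09, and then all 10 members were past 2-fold lower.

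**Figure D2:**
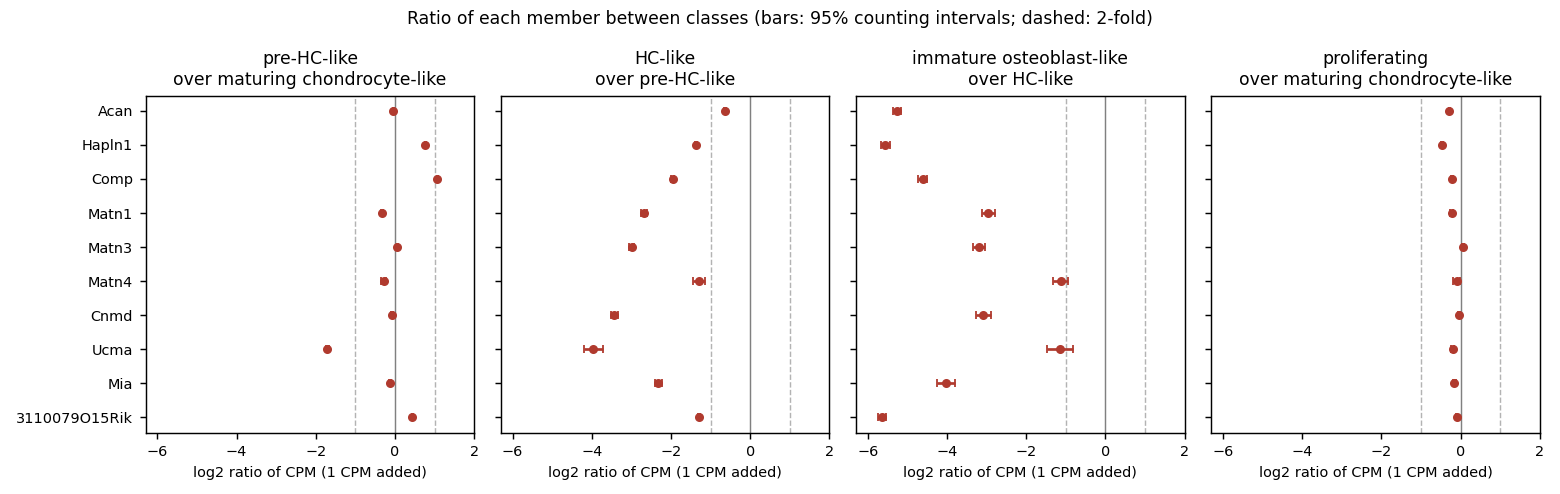
Log2 ratio of each member (1 CPM added) in 4 comparisons of classes, with points for the ratio, bars for 95% counting intervals and dashed lines at 2-fold. In the comparison of HC-like with pre-HC-like cells all points lie left of 0 and Acan alone lies inside the 2-fold lines at -0.63.

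The summed levels of blood cell markers were also higher in HC-like than in pre-HC-like cells, and the source of this RNA was not tested. The summed level of 22 leukocyte markers was 4044 CPM in HC-like and 158 CPM in pre-HC-like cells, with 11 of the 22 past 2-fold higher and 2 at 0 in HC-like cells. That of 8 red blood cell markers was 1731 and 701 CPM, with 5 of the 8 higher. Cells with at least 1 UMI of either list per 1000 UMIs were therefore left out of both classes, an alternative chosen after these values were seen. Of the 116 HC-like cells, 91 stayed, and of the 354 pre-HC-like cells 341. The median cell had 0.512 UMIs of these markers per 1000 UMIs in HC-like and 0.445 in pre-HC-like cells. All 9 members past 2-fold were still lower, and Acan was still inside 2-fold. This filter covered only the leukocyte and red blood cell lists. Markers of other lists were also higher in HC-like cells, 5 of 6 for proliferating cells and 6 of 11 for immature osteoblasts. So were 3 of 6 for osteoclasts and 3 of 6 for smooth muscle, but 0 of 6 for blood vessels, beside 22.0% of all genes tested. Of the 7 HC markers, 3 were higher and 2 lower.

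Single HC-like cells differed widely in these genes. The quartiles of Acan over the 116 cells were 881 and 6791 CPM around a median of 2997 CPM, while over the 354 pre-HC-like cells they were 5537 and 7474 CPM around 6480 CPM. The ratio of upper to lower quartile of Acan was thus 7.71 in HC-like against 1.35 in pre-HC-like cells. For Hapln1 the ratio was 12.1 in HC-like and 1.82 in pre-HC-like cells, and for Matn3 21.8 and 1.48. The highest HC-like cell had 24406 CPM of Acan and the highest pre-HC-like cell 19287 CPM. In 8 members the upper quartile of the HC-like cells was below the lower quartile of the pre-HC-like cells, the other 2 being Acan and Matn4. This was so for 1.94% of the 7970 genes tested. Ucma was at 0 in 88 of the 116 HC-like cells.

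The HC-like cells with more than 14 WPRE UMIs (92 cells) had less of most members than the 24 at or below the cutoff. Acan was at 3843 CPM [3776, 3910] in the former and 6425 CPM [6215, 6640] in the latter. Hapln1 was at 2689 CPM [2633, 2746] and 6923 CPM [6705, 7146], and Matn3 at 343 CPM [323, 363] and 1010 CPM [928, 1098]. For Matn4 and Ucma the intervals of both groups overlapped. The part that a difference in stage has in these values was not tested. The share of all genes that differed between the 92 and the 24 cells was not counted, so these values do not set the members apart.

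Within a class, cells rich in one member were not rich in all. Over the 1235 maturing cells thinned to 5000 UMIs each, Hapln1 and Ucma had a Pearson correlation of -0.53, and over the 354 pre-HC-like cells -0.55. Acan and Hapln1 had 0.41 and 0.37 in these classes and 0.76 in 115 HC-like cells. In HC-like cells Hapln1 with 3110079O15Rik reached 0.76, and Matn3 with Cnmd 0.73. These correlations are descriptions over cells of 1 library, which share its depth and its free RNA.

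The cells of the 5 chondrocyte classes were also divided by their Col10a1 UMIs, whatever their class. Which cells were included still rests on the clusters, and Col10a1 is among the HC markers. Each cell was thinned to 5000 UMIs, and the bins were 0 (1639 cells), 1 to 4 (153), 5 to 19 (51), 20 to 99 (87) and at least 100 (16). Ucma went from 2039 CPM to 1146, 216, 110 and 12.5 CPM, and was already 9.45-fold lower at 5 to 19 UMIs. Matn1 (2775, 2290, 1447, 685 and 588 CPM) and Cnmd (3205, 2680, 1784, 708 and 275 CPM) were lower by less. Matn3 went from 3366 to 3044, 2435, 1126 and 288 CPM. At 20 to 99 UMIs, 6 members (Matn1, Matn3, Matn4, Cnmd, Ucma and Mia) were below the level at 0 UMIs by more than 2-fold, with each cell at 5000 UMIs and also at 10000 UMIs. Among all genes with at least 10 CPM in either bin, 9.83% were lower by this rule at 5000 UMIs and 7.78% at 10000 UMIs.

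Hapln1, Comp and 3110079O15Rik were highest at 5 to 19 UMIs of Col10a1. Hapln1 was at 4880 CPM at 0 UMIs, 10169 CPM [9781, 10568] at 5 to 19 UMIs and 5110 CPM at 20 to 99 UMIs. Comp was at 3679, 4973 [4703, 5254] and 3924 CPM in the same bins. 3110079O15Rik was at 8165, 9153 [8785, 9532] and 6228 CPM. At 1 to 4 UMIs Comp was at 4723 CPM [4570, 4879] and 3110079O15Rik at 8724 CPM [8516, 8936]. For both genes these intervals overlapped those at 5 to 19 UMIs, although with cells thinned to 10000 UMIs they did not. Acan was at 4572 CPM [4374, 4778] at 20 to 99 UMIs and at 8075 CPM [7464, 8722] in the last bin, which holds only 16 cells. With cells thinned to 10000 UMIs the last bin held 55 cells, and Acan was at 4281 CPM in the bin of 20 to 99 UMIs and at 6369 CPM [6160, 6584] in the last. Of the 10 members, only Acan was higher in the last bin than in the one before it at either depth.

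**Figure D3:**
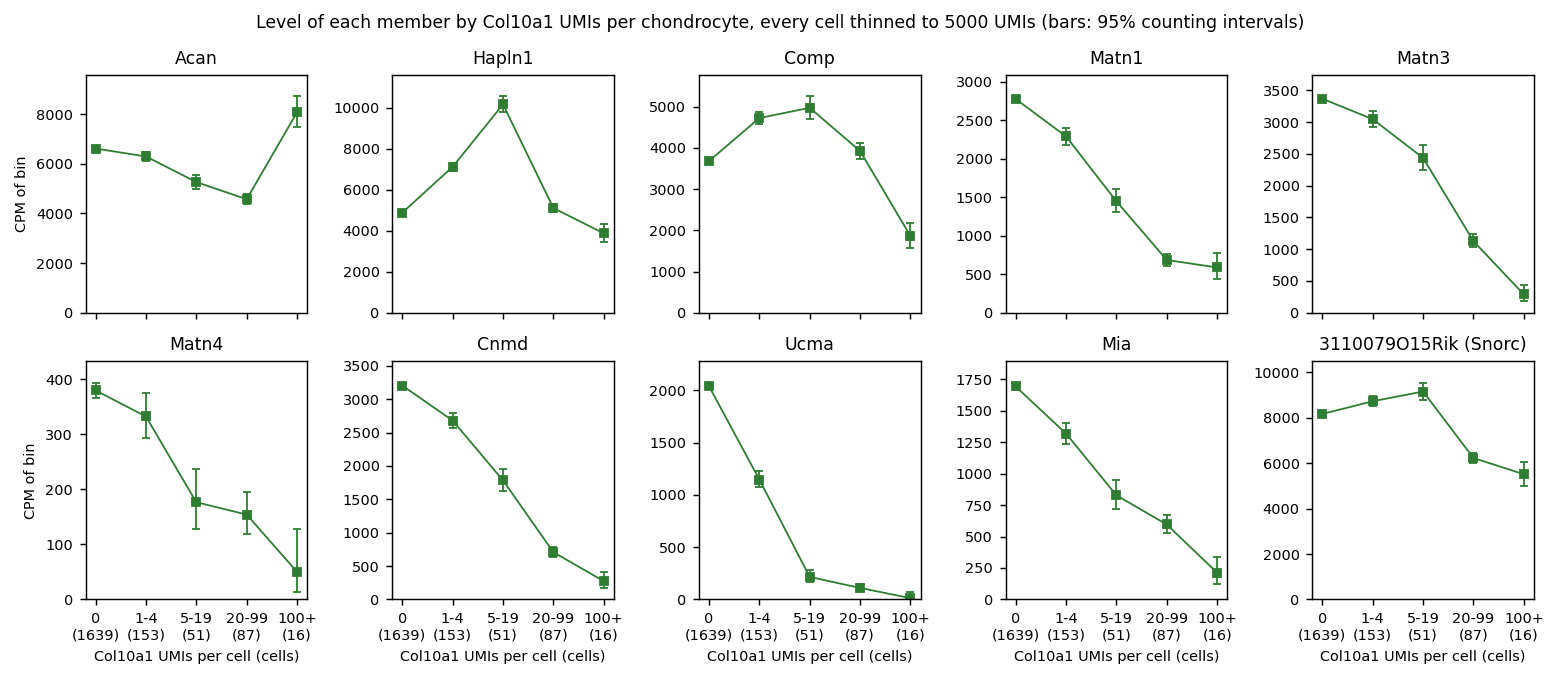
Level of each member (CPM, linear axis from 0) in chondrocytes divided by their Col10a1 UMIs, every cell thinned to 5000 UMIs, with the number of cells under each bin and bars for 95% counting intervals. Hapln1 peaks at 10169 CPM at 5 to 19 UMIs, whereas Ucma runs from 2039 down to 12.5 CPM and Acan ends at 8075 CPM in 16 cells.

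From maturing to proliferating cells none of the 10 members was past 2-fold, where 8.54% of 7541 genes tested were higher and 1.31% lower. The ratios ran from -0.48 for Hapln1 to 0.07 for Matn3. Scrublet marked 24 of the 161 proliferating cells as doublets. Clustering the chondrocytes alone at resolution 0.6 set apart 50 cells, 80% of them of the proliferating class. They were led by Ighm and the leukocyte markers Vpreb3 and Cd79a. Acan was at 4655 CPM in them and at 5831 CPM in a sub-cluster of 180 cells led by Cdk1 and Top2a. For Hapln1 and Comp the intervals of both sub-clusters overlapped. What the 50 cells are was not tested. With the members among the variable genes 1 member, Ucma, was past 2-fold with a ratio of 1.12.

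From HC-like to immature osteoblast-like cells all 10 members were lower past 2-fold, where 14.4% of 9035 genes tested were lower and 19.3% higher. The ratio was -5.65 for 3110079O15Rik, -5.56 for Hapln1, -5.26 for Acan and -4.61 for Comp. It was only -1.14 [-1.47, -0.81] for Ucma and -1.13 [-1.31, -0.95] for Matn4. In immature osteoblast-like cells every member but Matn4 was below its level in leukocyte-like cells, so the size of these ratios rests on a background level. Ucma was near that background in HC-like cells too, at 34.4 CPM against 24.5 CPM in leukocyte-like cells. The count of lower members depended on the setting. In the same cells it was 8 by the mean over cells of the CPM of each cell, and 9 with 10 CPM added. It also depended on the clusters. With at most 5% mitochondrial UMIs, 4 members were lower and 1 was higher past 2-fold. In that setting 59 HC-like and 274 immature osteoblast-like cells remained. At resolution 1.5, 5 members were lower and 1 was higher. With at least 2000 genes per cell 6 were lower and 1 was higher, and with seed 2, 7 and 1. Matn4 was inside 2-fold in 7 of 16 alternatives, and the direction of Ucma was the opposite in 4 of 16.

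Free RNA of broken cells can reach any droplet, and the members were found in blood cells too, which should not express them. In leukocyte-like cells Acan was at 125 CPM, Matn4 at 9.19 CPM and Ucma at 24.5 CPM, while red blood cell-like cells had 80.9, 5.39 and 12.4 CPM of them. Immature osteoblast-like cells had 109 CPM of Acan, 69.0 CPM of Hapln1, 75.6 CPM of Comp and 15.1 CPM of Ucma, each below the level in leukocyte-like cells. Matn4 was different, at 51.9 CPM [47.3, 56.8].

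The mix of the members' UMIs set Matn4 apart as well. In leukocyte-like, red blood cell-like, blood vessel-like and osteoclast-like cells, Acan made up 19.8% to 21.5% of the UMIs of all 10 members, Hapln1 12.4% to 15.4% and Matn4 1.21% to 1.48%. In immature osteoblast-like cells Matn4 made up 9.51% [8.71, 10.4], and in mature osteoblast-like cells 3.16% [2.91, 3.42], whereas in chondrocytes of all classes it was 0.864%. Matn4 was the only member whose interval in immature osteoblast-like cells lay above those of both blood classes. Both immature clusters showed it, the one led by Tnc and Mmp13 with 54.0 CPM, 10.0 times the red blood cell-like and 5.88 times the leukocyte-like level, and the one led by Cxcl12 and Adipoq with 35.8 CPM, 6.66 and 3.90 times.

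**Figure D4:**
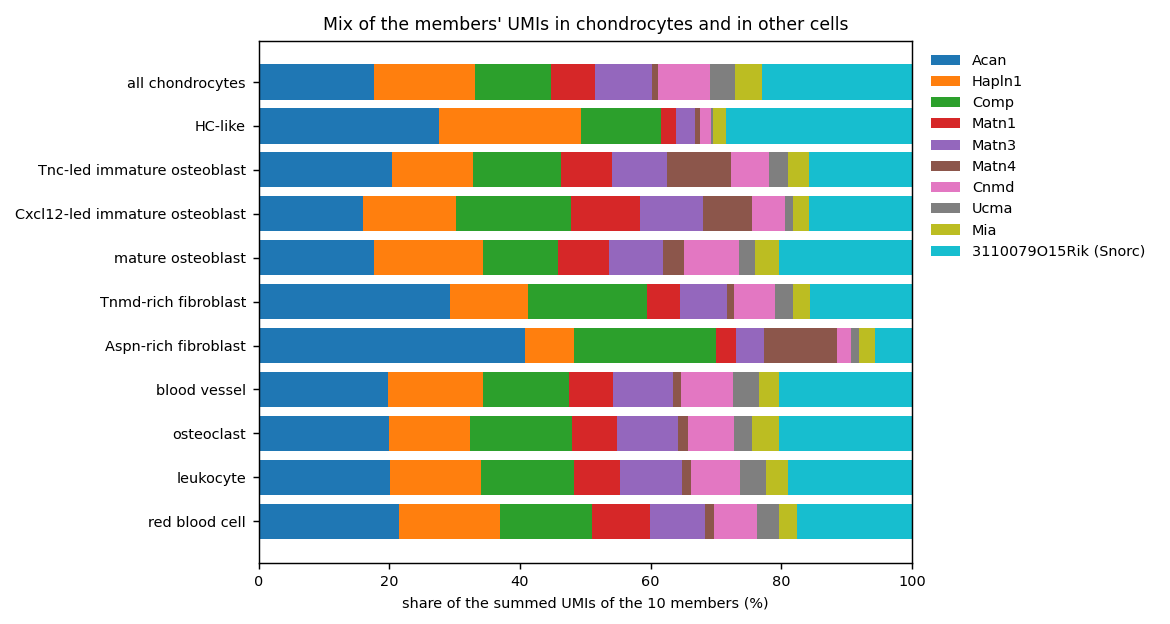
Share of each member in the summed UMIs of the 10 members (percent, stacked to 100) in chondrocytes, osteogenic and fibroblast clusters and 4 classes of blood, vessel and osteoclast cells. The brown segment is Matn4, which is 9.51% in all immature osteoblast-like cells and at most 1.48% in the last 4 bars.

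The share of cells with a UMI was compared at equal depth. With each cell at 5000 UMIs, Matn4 was found in 72.2% [69.6, 74.7] of maturing, 64.7% [59.5, 69.7] of pre-HC-like, 32.2% [23.8, 41.5] of HC-like, 19.6% [16.7, 22.7] of immature and 17.4% [13.9, 21.2] of mature osteoblast-like cells (Clopper-Pearson 95% intervals). The background was 3.96% [3.25, 4.78] in leukocyte-like cells. Unthinned, the shares were 94.5%, 96.3%, 62.9%, 37.3% and 45.7%, against 8.10% in leukocyte-like cells, at median depths from 10630 UMIs in immature osteoblast-like to 32435 UMIs in HC-like and 10985 UMIs in leukocyte-like cells. Ucma was found in 93.8% of maturing and 71.8% of pre-HC-like cells, but in 7.83% [3.64, 14.3] of HC-like cells, where leukocyte-like cells had 7.05%. A share at that level reads as background. In mature osteoblast-like cells Acan was found in 27.9%, against 34.5% of leukocyte-like cells, although its summed level was 354 CPM against 125 CPM. The median cell had 48.3 CPM of Acan, the upper quartile was 103 CPM and the highest cell had 6005 CPM, and Scrublet marked 40 of the 438 cells as doublets.

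**Figure D5:**
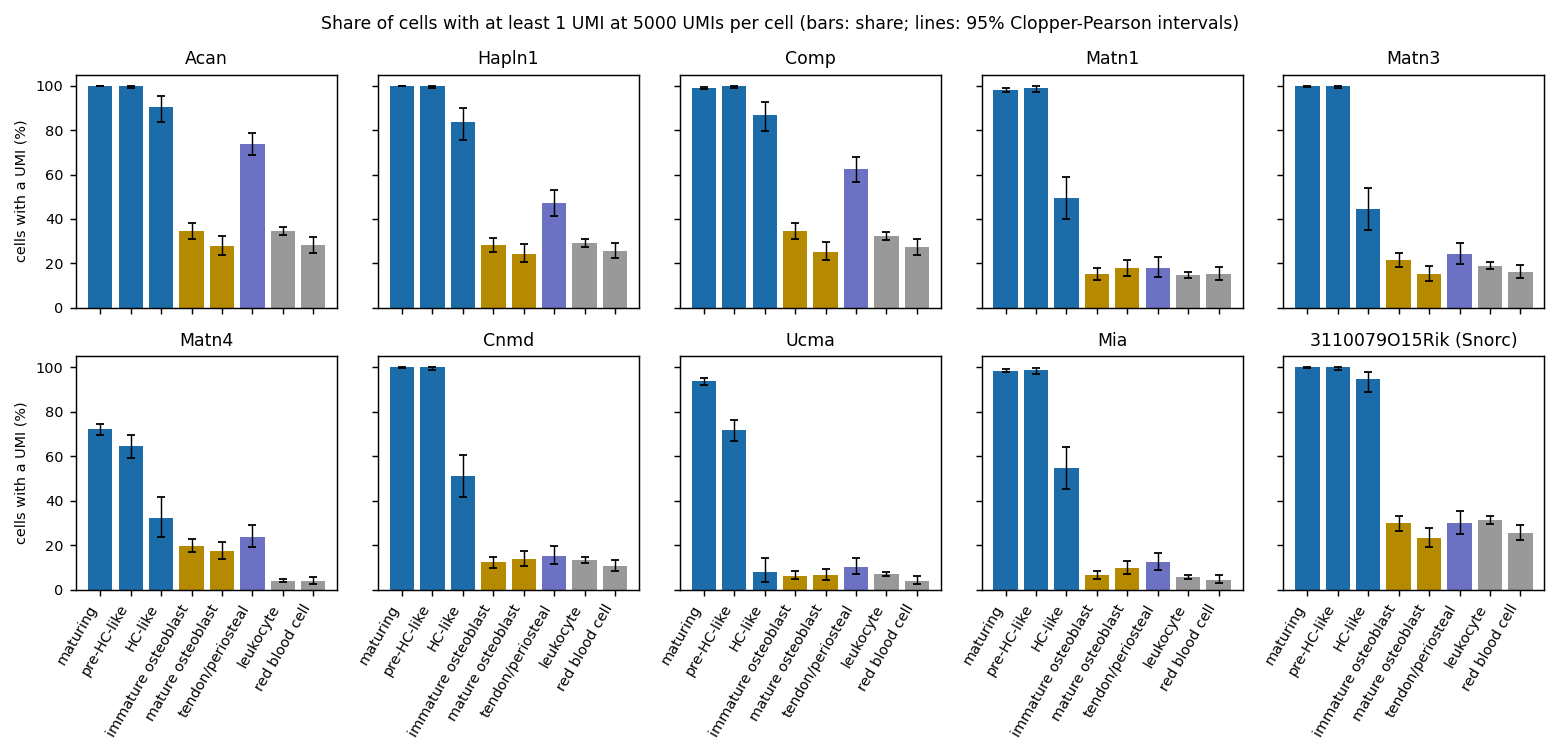
Share of cells with at least 1 UMI of each member (percent, axis from 0) with every cell thinned to 5000 UMIs, for chondrocyte (blue), osteoblast-like (ochre), tendon or periosteal fibroblast-like (violet) and blood (grey) classes, with 95% Clopper-Pearson intervals. Matn4 stands above the grey bars in both osteoblast-like classes, and Acan at 73.9% in the fibroblast-like class.

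Fibroblast-like cells of tendon or periosteum, 316 cells in 2 clusters, held Acan and Comp above the background. Acan was found in 73.9% [68.6, 78.7] of them at 5000 UMIs and Comp in 62.3% [56.6, 67.7], against 34.5% and 32.5% of leukocyte-like cells. The cluster led by Mfap5 and Tnmd had 1234 CPM of Acan and 764 CPM of Comp. All 10 members were above the background there, from 6.42 times the red blood cell-like level for Matn1 to 15.3 times for Acan, with 14.3 times for Comp, 10.5 times for Cnmd (260 CPM), 9.96 times for 3110079O15Rik (659 CPM) and 9.29 times for Ucma (115 CPM). Col2a1 was at 4138 CPM in that cluster, and the part of chondrocyte RNA in these values was not tested. The cluster led by Aspn and Postn had 456 CPM of Acan, 244 CPM of Comp and 126 CPM of Matn4, which is 23.3 times the red blood cell-like and 13.7 times the leukocyte-like level. In that cluster Acan made up 40.8% and Matn4 11.2% of the members' UMIs, while Cnmd, Ucma, Matn1 and 3110079O15Rik were at 0.965 to 1.02 times the red blood cell-like level. The summed level of the red blood cell markers in these fibroblast-like cells was 45630 CPM, and its part in the values was not tested.

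Osteogenic cells of both classes were pooled into those with more than 14 WPRE UMIs (291 cells) and those at or below it (886 cells). Between these pools no member differed past 2-fold, where 0.618% of 8092 genes tested were higher and 1.27% lower. The ratios lay between -0.23 for Matn4 and 0.15 for Comp, and the interval of Matn4 was [-0.42, -0.04]. Matn4 was at 51.2 CPM in HC-derived and 60.2 CPM in the other cells. Acan was at 248 and 224 CPM. Both groups mix the osteoblast-like classes, with 144 immature and 147 mature cells above the cutoff and 595 and 291 at or below it. Within the immature class Acan was at 162 CPM [146, 180] above the cutoff and 91.8 CPM [84.8, 99.2] at or below it, and within the mature class at 307 CPM [288, 327] and 379 CPM [364, 395]. The pooled values of Acan thus join classes in which the order of the groups was opposite, and so it was for Hapln1, with 93.04 and 61.4 CPM in the immature and 248 and 382 CPM in the mature class. Every member but Matn4 had this opposite order, although intervals overlapped in the immature class for Comp and Matn3. For Comp they overlapped in the mature class too. Within the immature class Matn1 was at 74.9 and 34.0 CPM, Mia at 34.5 and 12.1 CPM and Ucma at 26.3 and 11.5 CPM. Leukocyte-like cells had 44.3 CPM of Matn1, 21.1 CPM of Mia and 24.5 CPM of Ucma. The part of this background in the values was not tested. In the mature class Matn1 was at 117 and 176 CPM. The share of all genes with differences of this size or order within a class was not counted, so these values do not set the members apart. Matn4 was at 49.5 and 52.7 CPM in the immature class, where the intervals overlapped, and at 52.4 and 69.0 CPM in the mature class.

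Other genes of the same matrix were taken from a list of 79 in 6 groups, of which 78 were in the matrix. Between pre-HC-like and HC-like cells 53 were tested, of which 7 were higher, 31 lower and 15 neither, beside the 22.0% higher and 5.46% lower of all genes tested. The collagen partners of the members were lower, Col2a1 with a ratio of -2.26, Col9a1, Col9a2 and Col9a3 with -1.95 to -2.32, and Col11a2 with -2.01, while Col11a1 was at 2458 CPM in HC-like and 9866 CPM in pre-HC-like cells. So were the small proteoglycan genes Epyc (-3.39) and Fmod (-3.12), Scrg1 (-4.11) and Chadl (-2.37). Of the relatives of Comp and the matrilins, Thbs1 (-2.27), Thbs3 (-3.39) and Matn2 (-1.39) were lower, and Thbs2 (1.65) was higher.

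Of the 19 tested genes that build chondroitin sulphate chains or supply sulphate, 10 were lower in HC-like cells and 1, Chpf (1.31), was higher. The lower ones include Chst11 (-2.46), a chondroitin sulfotransferase, Papss2 (-1.74), which makes the sulphate donor, Ugdh (-1.82), which makes UDP-glucuronate, and the transporters Slc35d1 (-1.87) and Slc26a2 (-1.56). The others are Xylt1 (-1.48), Csgalnact1 (-1.63), Chsy1 (-1.20), Chst15 (-1.14) and Papss1 (-1.06). Of the 8 tested regulators of cartilage matrix genes, 7 were lower, Sox9 with -1.95, Sox8 with -1.91, Barx2 with -2.25, Foxa3 with -1.96, Foxa2 with -1.63, and Sox5 and Trps1. Sox9, which activates Acan and other members, was at 290 CPM in HC-like and 1125 CPM in pre-HC-like cells. Sox5, its partner, was at 27.8 and 114 CPM, and Trps1 at 186 and 374 CPM. Col2a1, the type IX and XI collagen genes, Sox9, Foxa2, Barx2 and Prg4 were also among the markers used for naming, so they are no independent evidence of a stage.

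Besides Chpf and Thbs2, 5 genes of the list were higher in HC-like cells. Vcan, the large proteoglycan of loose tissue, was at 10.7 CPM in HC-like and 0.90 CPM in pre-HC-like cells (2.62), and Cd44, the hyaluronan receptor, at 83.0 and 16.3 CPM (2.28). Has2, a hyaluronan synthase, was lower (-1.21). Htra1, a serine protease of matrix, was at 318 and 52.6 CPM (2.57), and Adamts5, an aggrecanase, at 24.7 and 8.28 CPM (1.47). Prg4, the gene of lubricin in superficial cartilage, was at 61.7 and 0.18 CPM (5.73). Cd44 is also a gene of leukocytes, whose markers were higher in HC-like cells.

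Between maturing and pre-HC-like cells 51 of the list were tested and 3 were higher in pre-HC-like cells, with none lower. These were Frzb (1.44), Foxa2 (1.84) and Chst12, at 58.5 CPM in pre-HC-like and 26.8 CPM in maturing cells. Of all genes tested there, 2.93% were higher and 3.49% lower. Between proliferating and maturing cells 50 were tested, and Chst3 (2.50) was higher and Frzb (-1.08) lower. The shares over all genes tested were 8.54% higher and 1.31% lower. Chst3 was at 13.98 CPM in proliferating and 1.65 CPM in maturing cells, and at 34.8 CPM in leukocyte-like cells. The summed level of the 22 leukocyte markers was 603 CPM in proliferating cells, with 3 of the 22 at 0, and 245 CPM in maturing cells, with 0 at 0, and its part in the level of Chst3 was not tested. In immature osteoblast-like against HC-like cells 13 of 54 were higher and 29 lower, where 19.3% of all genes tested were higher and 14.4% lower. Vcan was at 561 CPM in immature osteoblast-like cells, a ratio of 5.59, and 5 of 7 tested proteases were higher, Adamts9 (3.47), Adamts5 (2.70), Adamts7 (2.46), Adamts4 (2.07) and Adamts1 (1.69). In addition Fmod (1.34), Thbs2 (1.66), Papss1 (1.30), Chst7 (2.53), Chst15 (1.11), Ust (1.35) and Xylt2 (1.07) were higher there. The lower genes comprised 14 of 15 in the group of other cartilage matrix, from Prg4 (-5.45) and Susd5 (-5.44) to Chadl (-2.34). Of the genes that build chondroitin sulphate chains or supply sulphate 10 were lower, with the lowest ratios for Xylt1 (-3.01) and Papss2 (-2.71). The other lower genes were 5 regulators, Foxa3 (-4.17), Sox6 (-2.22), Sox5 (-2.06), Sox9 (-1.57) and Trps1 (-1.24). In HC-derived against other osteogenic cells 51 were tested. Thbs2 (-1.55) and Mgp (-1.32) were lower and Sox5 (1.07) was higher, where 0.618% of all genes tested were higher and 1.27% lower. Within the immature class Thbs2 was at 55.4 CPM above the cutoff and 132 CPM at or below it, and within the mature class at 25.7 and 90.4 CPM. Mgp was at 241 and 533 CPM in the immature and 81.2 and 170.1 CPM in the mature class. Sox5 was at 17.7 and 2.16 CPM in the immature class, but at 13.6 and 12.1 CPM in the mature class, with overlapping intervals.

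Over the 29 clusters, the genes with the pattern most like each member, among 7255 genes with at least 50 CPM in some cluster, were cartilage genes in most cases. For Matn1, Matn3 and Cnmd they were Epyc, Col9a2 and Col9a3, with Pearson correlations of log2 levels from 0.992 to 0.996. Mia had Col9a3, Col9a2 and Col9a1. Hapln1 (0.98) and 3110079O15Rik (0.99) had Col2a1, Col9a1 and Ncmap. Acan and Comp shared Susd5 and Fam180a, with 0.97 to 0.98, and had Col9a2 and Wscd2 besides. Ucma had Scrg1 (0.97), Epyc and Col9a3 (0.96 each). Matn4 had Col11a1 (0.97), Sox9 (0.97) and Col27a1 (0.96), none of which was named for another member. These are correlations over clusters of 1 library, most of them outside cartilage and near the background.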

How the data were processed

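Single-cell RNA-seq of 1 library from the tibiae of 1 mouse was used. The authors deposited the UMI count of each gene in each barcode, unnormalized, which Cell Ranger 3.1.0 had made on mm10 extended by tdTomato and WPRE. The sources used here name no annotation release. Of 31053 identifiers, 30934 matched GENCODE M21 (GRCm38), which gave coordinates. Depth was 500 to 85279 UMIs per barcode, with a median of 13957 in cells kept and 22122 in chondrocytes.

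Cells needed at least 1600 genes (the study's minimum), at most 10% mitochondrial and at most 50% ribosomal protein UMIs. With scanpy 1.11.5 (Python 3.11.15, anndata 0.12.19, numpy 2.4.6, scipy 1.17.1, pandas 2.3.3, scikit-learn 1.9.0, igraph 0.11.9, matplotlib 3.10.9), counts were scaled to 10000, log-transformed, and reduced from 2000 variable genes to 30 components, and Leiden clusters were taken at resolution 1 on 20 neighbours with seed 1. The members, Mmp genes, Pth1r and reporters were kept out of the variable genes. Scrublet, at an expected rate of 10%, marked 588 barcodes (4.15%), which were kept.

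Clusters were named from 17 marker lists. Chondrocytes needed at least 5000 CPM of Col2a1, more of it than of Col1a1, under 50 CPM of Ptprc and fewer than 2 markers of other cell types among their top 10 genes. Stage names needed 3 markers at 2-fold over other chondrocyte clusters, HCs needed 5000 CPM of Col10a1 with 1 such marker, and proliferating cells Top2a in over 50% of cells. Chondrocytes meeting none of these were called maturing. Osteogenic names needed at least 1000 CPM of Col1a1 and no less of it than of Col2a1. The clusters had been seen when these limits were set.

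Intervals are exact Poisson for levels, Clopper-Pearson for shares and normal on the log2 scale for ratios, all at 95%. For shares, cells were thinned to 5000 UMIs, without those of lower depth. With 1 library no test was made. The ratio and interval code was tested on simulated data. The genes named are the members, genes of the fixed list past 2-fold in a comparison, and the 3 genes most alike to each member. The members and all lists were chosen with earlier results of these data known.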

Additional observations from a re-analysis of the deposited data

Results flagged for a closer look

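Barcodes with fewer than 1600 genes took part in no comparison at the main setting, yet held much RNA of the members. Some of them entered the alternative with at least 1000 genes per cell. The 10 members together made up 3613 CPM [3585, 3641] of the 5476 barcodes, against 376 CPM [365, 387] in red blood cell-like cells, and were looked at again for that reason. Acan was at 969 CPM against 80.9 CPM in red blood cell-like cells, and Comp at 694 CPM against 53.4 CPM. The fold was lowest for 3110079O15Rik with 6.53 and highest for Matn4 with 15.8. What these barcodes hold was not tested.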

How the results depend on the processing

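Of 90 counts of members under another setting, 78 stayed within 1.5 times the reported count and 12 did not. Of 760 single log2 ratios, 317 stayed within their counting interval and 437 moved outside it without being counted as turned. The other 6 turned direction. Only members past 2-fold at the main setting could be counted as turned. Changes of direction of members inside 2-fold are therefore not among these 6. For pre-HC-like over maturing cells, 2 members were past 2-fold, but 0 with the members among the variable genes, and 1 (Ucma) each with at least 2000 genes per cell, at resolution 0.6, at resolution 1.5, with 3000 variable genes, and with stages named by leading genes, an alternative added after seeing the data. Ucma had 0.30 in place of -1.71 with the members among the variable genes, and Comp ranged from 0.46 to 1.14. HC-like over pre-HC-like gave 9 lower members in each alternative with a value, or 10 relative to the median of all genes, which was also added after seeing the data. Immature osteoblast-like over HC-like gave 10 lower members. With at most 5% mitochondrial UMIs it gave 4 lower and 1 higher, and at resolution 1.5 it gave 5 lower and 1 higher. With at least 2000 genes it gave 6 lower and 1 higher, and with seed 2 it gave 7 lower and 1 higher. In the same cells it gave 8 lower by the mean over cells and 9 with 10 CPM added. In that comparison Ucma turned from -1.14 to 1.07 with at least 2000 genes, 2.20 with at most 5% mitochondrial UMIs, 1.63 at resolution 1.5 and 1.19 with seed 2, and Cnmd from -3.08 to 0.036 with at most 5% mitochondrial UMIs. Proliferating over maturing gave 0, but 1 with the members among the variable genes. The class with the highest level was the same for 6 of the 10 members with at least 1000 genes or at most 20% mitochondrial UMIs and for 4 with seed 2. With at least 1000 genes or at most 20% mitochondrial UMIs no cluster was named pre-HC-like or proliferating. Hapln1, Comp, 3110079O15Rik and Matn3, reported above as highest in those classes, could thus not keep their class. No cluster was named proliferating with seed 2, at resolution 0.6 or with doublets left out before clustering. Matn3 could thus not keep its class in these settings either. The cause of the other changes was not tested. No value could be had for 11 comparisons under a setting that left a class without a cluster: the 3 among chondrocytes with at least 1000 genes and with at most 20% mitochondrial UMIs, those of HC-like with pre-HC-like and osteoblast-like cells and of proliferating cells at resolution 0.6, and that of proliferating cells with doublets left out before clustering and with seed 2. No paired analysis was possible because there is 1 library, whose entries were counted together, and for the same reason no replicate could be left out.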

Other observations

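Clustering the chondrocytes alone at resolution 0.6 divided the pre-HC-like cells. A sub-cluster of 127 cells led by Sgms2, Pth1r and Alpl had 12076 CPM of Hapln1, 8179 CPM of Comp, 12018 CPM of 3110079O15Rik and 207 CPM of Ucma. Another of 234 cells led by Car8 and Ppa1 had 6524 CPM of Hapln1, 6780 CPM of Comp and 785 CPM of Ucma. Col10a1 was at 2019 CPM in the former. Pre-HC-like cells made up 89.8% of the 127 cells and 76.5% of the 234 cells, and the rest came from other chondrocyte classes.

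In the 82 cells without a stage name, which had the highest Ucma, single cells differed most in Matn1. Its quartiles were 199 and 3431 CPM around a median of 1030 CPM, and 10 cells were at 0. Cells of the smooth muscle or pericyte-like class, 100 in number, had 709 CPM of Acan [659, 762] and 33.5 CPM of Matn4 [23.3, 46.6], with 4 doublets marked among them.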
